A study of Mus musculus with 696 samples.

Results

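The 44 cell cycle genes described here were taken by symbol from a hand-written list, and all 44 were among the 15652 genes of the deposited single-cell count table. They comprised 16 genes that act in S phase, 25 that act in G2 and mitosis (G2/M) and 3 others, Stmn1, Ccnd1 and Cdkn1a. The cells were keratinocytes sorted from tail skin of adult female mice that carried both Lrig1-EGFP-ires-CreERT2 and Rosa26-fl/STOP/fl-tdTomato, of a mixed CBA and C57BL/6 background. In all groups hydroxytamoxifen had been put on the tail once before any wound, which switches on tdTomato in cells with Lrig1, a gene of stem cells at the junctional zone of the hair follicle, and in their descendants. Tail skin was taken at 4 time points: without a wound (0w), 1 week and 8 weeks past a first full-thickness wound (1w pw1 and 8w pw1), and 1 week past a second wound that was placed over the first at 8 weeks (1w pw2). The tdTomato+ cells came from a zone that held the wound bed together with follicles at a distance from it, so the position of a single cell is not known, and cells outside the Lrig1 lineage were not collected. Each time point had 2 plates of cells, called replicates 1 and 2 in the labels. The sample titles give both plates of a time point the same replicate letter, which was B at 8w pw1 but C at 0w. None of the labels says that the 2 plates came from separate mice. The study's methods speak of independent experiments on several biological replicates but do not tie a plate to an experiment or a mouse, so p-values measure the spread between plates, which may be technical.

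A dividing cell loads the MCM helicase on its origins in G1, copies its DNA in S phase and divides in mitosis under cyclins A and B and the kinase Cdk1. Cyclin E opens S phase, D cyclins relay growth signals in G1, and Cdkn1a (p21) holds the cyclin-dependent kinases in check. In the epidermis division is a property of the basal layer, marked by Krt5 and Krt14, and cells that move into the suprabasal layers, marked by Krt1 and Krt10, leave the cycle and differentiate. E2F factors drive many S phase genes, while many G2/M genes carry a cell cycle homology region (CHR) near their start, where the DREAM and MuvB complexes act.

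The promoters of the 2 groups differed in these letters. RefSeq promoters of GRCm38.p6, from 250 bases before to 50 bases after the start, were matched by symbol for 35 of the 44 genes and gave 38 promoters. The CHR letters TTTGAA, read on both strands, were present in 19 of 23 G2/M promoters (82.6%), 1 of 13 S phase promoters (7.69%) and 17.9% of all 32851 promoters of that table. The E2F-like letters TTTNNCGC, in which N is any base and which include TTTGGCGC, TTTCCCGC and TTTCGCGC, were present in 7 of 13 S phase promoters (53.8%), 2 of 23 G2/M promoters (8.70%) and 5.17% of all promoters. CCAAT was found in 82.6% of the G2/M, 69.2% of the S phase and 37.4% of all promoters, and the shorter CHR form TTTAA in 34.8%, 38.5% and 37.7%. A match of letters is a description and not a bound site. The windows below, 40 bases read along the gene's own strand, show TTTGAA (or its reverse complement TTCAAA) in capitals in 4 G2/M promoters and TTTNNCGC (or its reverse complement) in capitals in 4 S phase promoters, because these 2 groups are set against each other throughout.
Mki67, chr7:135716455-135716494, minus strand: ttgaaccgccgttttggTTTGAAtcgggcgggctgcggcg
Top2a, chr11:99024190-99024229, minus strand: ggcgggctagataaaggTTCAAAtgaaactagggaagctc
Cdk1, chr10:69352961-69353000, minus strand: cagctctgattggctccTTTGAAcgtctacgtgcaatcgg
Ncapg, chr5:45669878-45669917, plus strand: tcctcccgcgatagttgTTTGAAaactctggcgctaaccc
Mcm6, chr1:128359730-128359769, minus strand: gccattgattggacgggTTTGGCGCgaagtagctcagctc
Mcm5, chr8:75109339-75109378, plus strand: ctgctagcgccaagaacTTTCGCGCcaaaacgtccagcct
Mcm7, chr5:138172026-138172065, minus strand: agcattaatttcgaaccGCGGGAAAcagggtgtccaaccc
Cdc6, chr11:98907996-98908035, plus strand: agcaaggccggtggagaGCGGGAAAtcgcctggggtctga

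Of the cells in the table, 179 were from 0w, 168 from 1w pw1, 172 from 8w pw1 and 177 from 1w pw2. There were 79 to 91 cells and 12293095 to 19760763 counts on a plate. The median count per cell ranged over plates from 64980 to 256588, and the deepest cell held 3.64% to 12.1% of the counts of its plate. Counts were summed per plate, so fewer cells of a type and less RNA per cell cannot be told apart in these sums. All 44 genes passed the filter on low counts, which kept 13853 genes. The median share of mitochondrial counts was 22.7% and 30.7% on the 0w plates, 17.9% and 23.9% at 1w pw1, 18.2% and 22.1% at 8w pw1 and 14.3% and 13.0% at 1w pw2. The keratinocyte label was checked with Krt14, which had a count in 70 to 85 cells of each plate, while Ptprc, the leukocyte marker, had a count in 2 to 7. The fibroblast marker Col1a1 had 0 to 4 counts per plate, and Pecam1, listed here as an endothelial marker, had a count in 74 to 91 cells of each plate. Pecam1 lay at 473 and 873 CPM at 0w, 197 and 109 at 1w pw1, 856 and 1845 at 8w pw1 and 308 and 910 at 1w pw2, lowest on the 1w pw1 plates, while Col1a1 and Pdgfra lay below 3 CPM on every plate.

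Of the S phase genes, the MCM subunits and the E cyclins as sums were lowest on the plates of both wound weeks, while others, such as Pcna and Gins2, overlapped between 0w and 1w pw1. Gins2, a subunit of the replicative helicase complex, lay at 6.49 and 9.22 CPM at 0w, 8.36 and 11.3 at 1w pw1, 5.76 and 9.46 at 8w pw1 and 5.32 and 7.77 at 1w pw2, and both 1w pw1 plates lay above both 1w pw2 plates. The 6 subunits of the MCM helicase together lay at 158 and 197 CPM (counts scaled to a library of 1e6 with TMM factors) at 0w, 53.6 and 52.6 at 1w pw1, 113 and 178 at 8w pw1 and 78.1 and 81.5 at 1w pw2. The plates of both wound weeks thus lay below all plates of 0w and 8w pw1, which overlapped with each other. The E cyclins Ccne1 and Ccne2 together lay at 25.0 and 22.2 CPM at 0w, 6.53 and 5.97 at 1w pw1, 24.8 and 30.2 at 8w pw1 and 8.47 and 5.39 at 1w pw2, with the same separation.

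Among single subunits Mcm3 lay at 10.5 and 23.3 CPM at 0w, 2.22 and 1.11 at 1w pw1, 14.0 and 6.65 at 8w pw1 and 6.86 and 5.99 at 1w pw2. Both 1w pw1 plates lay below every other plate, and the fitted log2 fold change at 1w pw1 against 0w was -3.34 (SE 0.79, adjusted p = 0.110 by edgeR's quasi-likelihood test with Benjamini-Hochberg adjustment over all genes, as throughout). Mcm5 lay at 12.6 and 14.6 CPM at 0w, 2.68 and 3.10 at 1w pw1, 13.2 and 6.98 at 8w pw1 and 11.3 and 19.96 at 1w pw2. The 1w pw1 plates were again the lowest of all, with a log2 fold change of -2.23 (SE 0.67, edgeR adjusted p = 0.201), but the 1w pw2 plates overlapped with those of 0w. Mcm2 lay at 7.01 and 15.3 CPM at 0w, 3.53 and 3.57 at 1w pw1, 6.55 and 3.26 at 8w pw1 and 12.6 and 6.53 at 1w pw2. Its 1w pw2 plates overlapped with those of 0w, and its log2 fold changes at 1w pw1 and 1w pw2 were -1.65 (SE 0.76) and -0.22 (SE 0.73). With a stricter filter on cells (2000 genes or more, no more than 20% mitochondrial counts) both lay on the other side of 0, at 0.15 and 1.47, and the latter ranged from -0.81 to 0.43 when a plate was left out.

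Mcm7 had the same kind of pattern as Mcm5, with 22.9 and 15.8 CPM at 0w, 5.62 and 5.97 at 1w pw1, 25.3 and 21.3 at 8w pw1 and 21.9 and 11.3 at 1w pw2. Mcm4 was low at both wound weeks and at 8w pw1, with 63.7 and 69.9 CPM at 0w, 15.3 and 25.7 at 1w pw1, 23.8 and 36.3 at 8w pw1 and 11.96 and 22.7 at 1w pw2. Its 0w plates were the highest, and its log2 fold change at 8w pw1 against 0w was -1.15 (SE 0.55, edgeR adjusted p = 0.775) and 0.38 with the stricter filter. Mcm6 lay at 41.3 and 57.9 CPM at 0w, 24.3 and 13.2 at 1w pw1, 30.6 and 104 at 8w pw1 and 13.4 and 15.05 at 1w pw2. The high 8w pw1 plate of Mcm6 owed 65.4% of its counts to a single cell.

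Ccne2, the cyclin that starts S phase with Cdk2, separated the wound weeks from the other plates. It lay at 21.1 and 18.6 CPM at 0w, 5.36 and 4.04 at 1w pw1, 22.9 and 25.7 at 8w pw1 and 7.84 and 3.40 at 1w pw2. The 4 plates of the wound weeks lay below the 4 others, with log2 fold changes against 0w of -2.08 for 1w pw1 (SE 0.64, edgeR adjusted p = 0.211) and of -1.82 for 1w pw2 (SE 0.63, adjusted p = 0.276). These counts came from few cells, 4 to 15 on a plate.

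Pcna, the clamp that holds DNA polymerase on its template, lay at 265 and 525 CPM at 0w, 278 and 239 at 1w pw1, 139 and 428 at 8w pw1 and 151 and 153 at 1w pw2. Its 0w and 1w pw1 plates overlapped, and its 1w pw2 plates lay below both 0w plates (log2 fold change -1.38, SE 0.59, edgeR adjusted p = 0.374). Its log2 fold changes with the stricter filter on cells lay on the other side of 0, at 1.05 for 1w pw1 and 0.18 for 1w pw2. The enzymes of nucleotide supply, Rrm1, Rrm2 and Tyms, together lay at 162 and 379 CPM at 0w, 123 and 119 at 1w pw1, 106 and 291 at 8w pw1 and 85.7 and 152 at 1w pw2, with plates of 0w and 8w pw1 that differed among themselves by more than those of the wound weeks.

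Esco2, an acetyltransferase that joins sister chromatids during replication, had its highest plate at 8w pw1. It lay at 20.7 and 53.1 CPM at 0w, 8.89 and 17.04 at 1w pw1, 41.7 and 168 at 8w pw1 and 5.18 and 1.83 at 1w pw2. The 1w pw2 plates were the lowest of all, with a log2 fold change of -3.40 from 0w (SE 0.87, edgeR adjusted p = 0.170) and of -4.91 from 8w pw1 (SE 0.93, adjusted p = 0.263), but of -1.62 and -0.0076 with the stricter filter on cells. When a plate was left out, these 2 changes ranged from -4.36 to -2.58 and from -5.84 to -3.51. Esco2 had a count in 6 to 11 cells of a plate, and its top cell held 37.8% to 81.6% of its counts. The licensing factors Cdc6 and Cdt1 had 1 to 140 and 2 to 192 counts on a plate, so their fold changes rest on few counts.

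**Figure D1:**
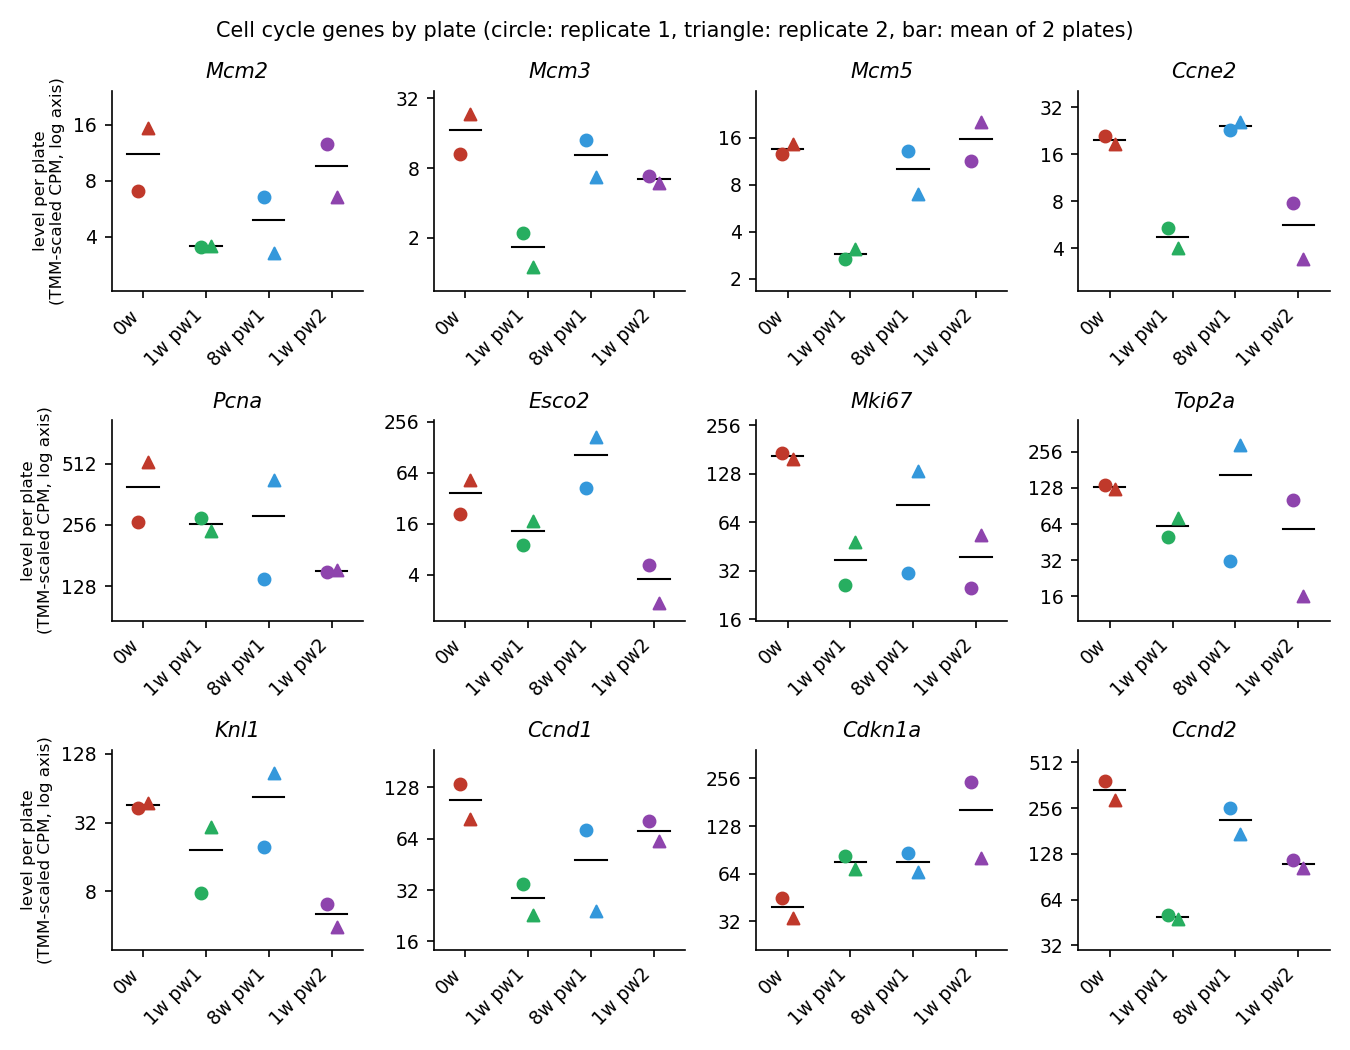
Level of 11 named cell cycle genes and of Ccnd2 on each plate, as TMM-scaled CPM on a log axis, by time point; circles are replicate 1, triangles replicate 2 and bars the mean of 2 plates. The 1w pw1 plates of Mcm3 and Mcm5 and all 4 wound-week plates of Ccne2 lie below the rest, while Mki67 and Top2a spread within time points.

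Between plates of one time point the G2/M genes varied more at 1w pw1 and 8w pw1 than at 0w and 1w pw2 in their sum. Mki67, the proliferation antigen Ki-67, lay at 173 and 158 CPM at 0w, 26.3 and 48.6 at 1w pw1, 31.2 and 133 at 8w pw1 and 25.2 and 53.2 at 1w pw2. Its 0w plates were the highest, and its log2 fold changes against 0w were -2.14 for 1w pw1 (SE 0.72, edgeR adjusted p = 0.247) and -2.08 for 1w pw2 (SE 0.71, adjusted p = 0.272). Top2a, the topoisomerase that untangles replicated DNA, lay at 135 and 125 CPM at 0w, 50.1 and 72.2 at 1w pw1, 31.4 and 293 at 8w pw1 and 101.02 and 16.1 at 1w pw2. Its 8w pw1 plates lay on both sides of every other plate but one, and its log2 fold changes at 1w pw1 and 1w pw2 were -1.09 (SE 0.97) and -1.15 (SE 0.98), the latter ranging from -3.04 to -0.34 when a plate was left out.

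Knl1, a scaffold of the kinetochore, lay at 43.0 and 47.5 CPM at 0w, 7.71 and 29.0 at 1w pw1, 19.4 and 86.9 at 8w pw1 and 6.23 and 3.94 at 1w pw2. Its 1w pw2 plates were the lowest of all, with log2 fold changes of -3.16 from 0w (SE 0.86, edgeR adjusted p = 0.187) and of -3.39 from 8w pw1 (SE 0.87, adjusted p = 0.338). The latter ranged from -4.09 to -1.87 when a plate was left out. The mitotic cyclins Ccna2, Ccnb1 and Ccnb2 together lay at 85.1 and 188 CPM at 0w, 22.2 and 176 at 1w pw1, 25.8 and 193 at 8w pw1 and 99.4 and 107 at 1w pw2. The mitotic kinases together ranged within time points from 5.42 to 68.9 CPM at 1w pw1 and from 11.2 to 110 at 8w pw1, so all time points overlapped. Replicate 1 of 1w pw1 and of 8w pw1 was low in most G2/M genes, and Aurkb, the kinase of the chromosomal passenger complex, had 0 counts on the former.

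Few cells set the G2/M sums. On every plate 2 to 4 cells held at least 50% of the counts of the 25 G2/M genes, and the top cell alone held 23.3% to 48.6%. For the 16 S phase genes that number was 2 to 14 cells, and it was lowest on replicate 2 of 8w pw1, where 1 cell held 48.5%. The summed level of the S phase genes was 638 and 1198 CPM at 0w, 479 and 450 at 1w pw1, 444 and 1109 at 8w pw1 and 337 and 404 at 1w pw2. Replicate 2 of 0w and of 8w pw1, the highest in this sum, were also the highest in the 6 sebocyte markers, which summed to 7446 and 3713 CPM there and to 830 to 963 CPM on the 6 other plates. The 6 markers of the hair follicle bulge summed to 2136 and 1236 CPM at 0w, 588 and 384 at 1w pw1, 1366 and 1057 at 8w pw1 and 826 and 1193 at 1w pw2, lowest on the 1w pw1 plates. That of the G2/M genes was 1032 and 1081, 233 and 843, 231 and 1709, and 469 and 462 CPM in the same order. The log2 ratio of the S phase to the G2/M sum, which is compared only between plates because gene length is not corrected, was -0.69 and 0.15 at 0w, 1.04 and -0.90 at 1w pw1, 0.94 and -0.62 at 8w pw1 and -0.48 and -0.19 at 1w pw2. It overlapped between all time points.

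Of the 3 other genes, Cdkn1a, the inhibitor p21, lay at 44.6 and 33.6 CPM at 0w, 83.2 and 68.5 at 1w pw1, 85.9 and 65.9 at 8w pw1 and 244 and 80.9 at 1w pw2. All later plates lay above both 0w plates, and the log2 fold changes against 0w were 0.96 for 1w pw1 (SE 0.57, edgeR adjusted p = 0.588) and 2.05 for 1w pw2 (SE 0.58, adjusted p = 0.189). Without replicate 1 of 1w pw2 the latter was 1.03, and over the 4 plates left out in turn it ranged from 1.03 to 2.66. Ccnd1, cyclin D1, lay at 133 and 83.0 CPM at 0w, 34.8 and 22.8 at 1w pw1, 72.3 and 24.2 at 8w pw1 and 81.01 and 61.7 at 1w pw2. From 0w to 1w pw1 the log2 fold change was -1.91 (SE 0.61, edgeR adjusted p = 0.230), and from 0w to 1w pw2 -0.60 (SE 0.59, adjusted p = 0.745). Stmn1, a microtubule destabiliser high in dividing cells, lay at 197 and 212 CPM at 0w, 129 and 85.9 at 1w pw1, 64.2 and 201 at 8w pw1 and 82.3 and 79.8 at 1w pw2.

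The first week of healing was compared with unwounded skin. No member passed the test between 1w pw1 and 0w, meaning an adjusted p below 0.05 and a fold above 2, which 73 of 13853 genes (0.527%) passed in edgeR. At an unadjusted p below 0.05 there were 8 members, all lower at 1w pw1, beside 6.01% of all genes. They were the S phase genes Mcm3, Mcm4, Mcm5, Mcm7, Ccne2 and Cdt1, with Mki67 and Ccnd1. DESeq2 on the same sums called 4 members, Mcm3, Mcm5, Ccne2 and Ccnd1, all lower, beside 5.32% of the genes it tested. The plates did not overlap, with 1w pw1 lower, for 12 of 16 S phase and 6 of 25 G2/M genes, beside 22.1% of all genes. The median log2 fold change was -1.58 over the S phase genes, 14 of which were below 0, and -0.52 over the G2/M genes, 17 below 0. Over all genes it was -0.04, with 51.8% below 0. The G2/M median was 0.35 without replicate 1 of 1w pw1 and -2.56 without replicate 2. With the stricter filter on cells, which left 313 cells and only 9 on replicate 2 of 0w, the S phase median was -0.30, and Mcm3 and Ccne2 had log2 fold changes of -1.57 and -0.96.

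At 8w pw1 against 0w, the healed skin before the second wound, edgeR called 0 genes of all tested (0.0%). No member had an unadjusted p below 0.05, beside 6.48% of all genes, and DESeq2 called 0 members beside 1.24% of the genes it tested. The medians were -0.33 for the S phase and 0.32 for the G2/M genes, beside 0.07 for all genes, and the S phase median was 0.12 without replicate 2 of 0w and -0.80 without replicate 2 of 8w pw1. The G2/M median was -2.22 without replicate 2 of 8w pw1, -2.34 with the stricter filter on cells and -0.22 with the replicate number as a block. From 1w pw1 to 8w pw1 the log2 fold change was below 0 in 1 of 16 S phase genes, beside 46% of all genes, and its median was 1.45, beside 0.09 over all genes. With the stricter filter on cells this median was -0.34, on the other side of 0, as was Esco2 at -1.32. No member was among the 16 genes called there by edgeR (0.115%). At an unadjusted p below 0.05, 6 members were higher, all of S phase (Ccne2, Esco2, Mcm3, Mcm5, Mcm6 and Mcm7), beside 6.4% of all genes, and DESeq2 called Ccne2, Esco2, Mcm3 and Mcm7, beside 4.21% of the genes it tested. The log2 fold changes from 1w pw1 to 8w pw1 were 2.37 (SE 0.64) for Ccne2, 3.01 (SE 0.85) for Esco2 and 2.63 (SE 0.77) for Mcm3, with edgeR adjusted p of 0.200, 0.223 and 0.239. When a plate was left out, Esco2 ranged from 1.63 to 3.69 and Mcm3 from 1.99 to 3.17. With the stricter filter Ccne2 was at 0.54 and Mcm3 at 0.43.

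At 1w pw2 against 0w, which compares the second wound week with unwounded skin, no member was among the 37 genes called by edgeR (0.267%). At an unadjusted p below 0.05, 8 members were lower (Esco2, Mcm4, Mcm6, Ccne2, Pcna, Knl1, Mki67 and Stmn1), beside 5.73% of all genes, and Cdkn1a was higher, beside 6.82%. DESeq2 called Esco2, Mcm4 and Knl1 lower and Cdkn1a higher, beside 5.17% of the genes it tested. The plates did not overlap, with 1w pw2 lower, for 9 of 16 S phase and 11 of 25 G2/M genes (19.4% of all genes). Cdc20, Plk1 and Ube2c, which act in mitosis, were higher on both 1w pw2 plates than on both 0w plates, as was Cdkn1a (21.5% of all genes). The median log2 fold change was -1.38 over the S phase genes, 15 of which were below 0, and -0.84 over the G2/M genes, 16 below 0. Over all genes it was 0.05, with 48% below 0. With the stricter filter on cells the S phase median was 0.18.

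**Figure D2:**
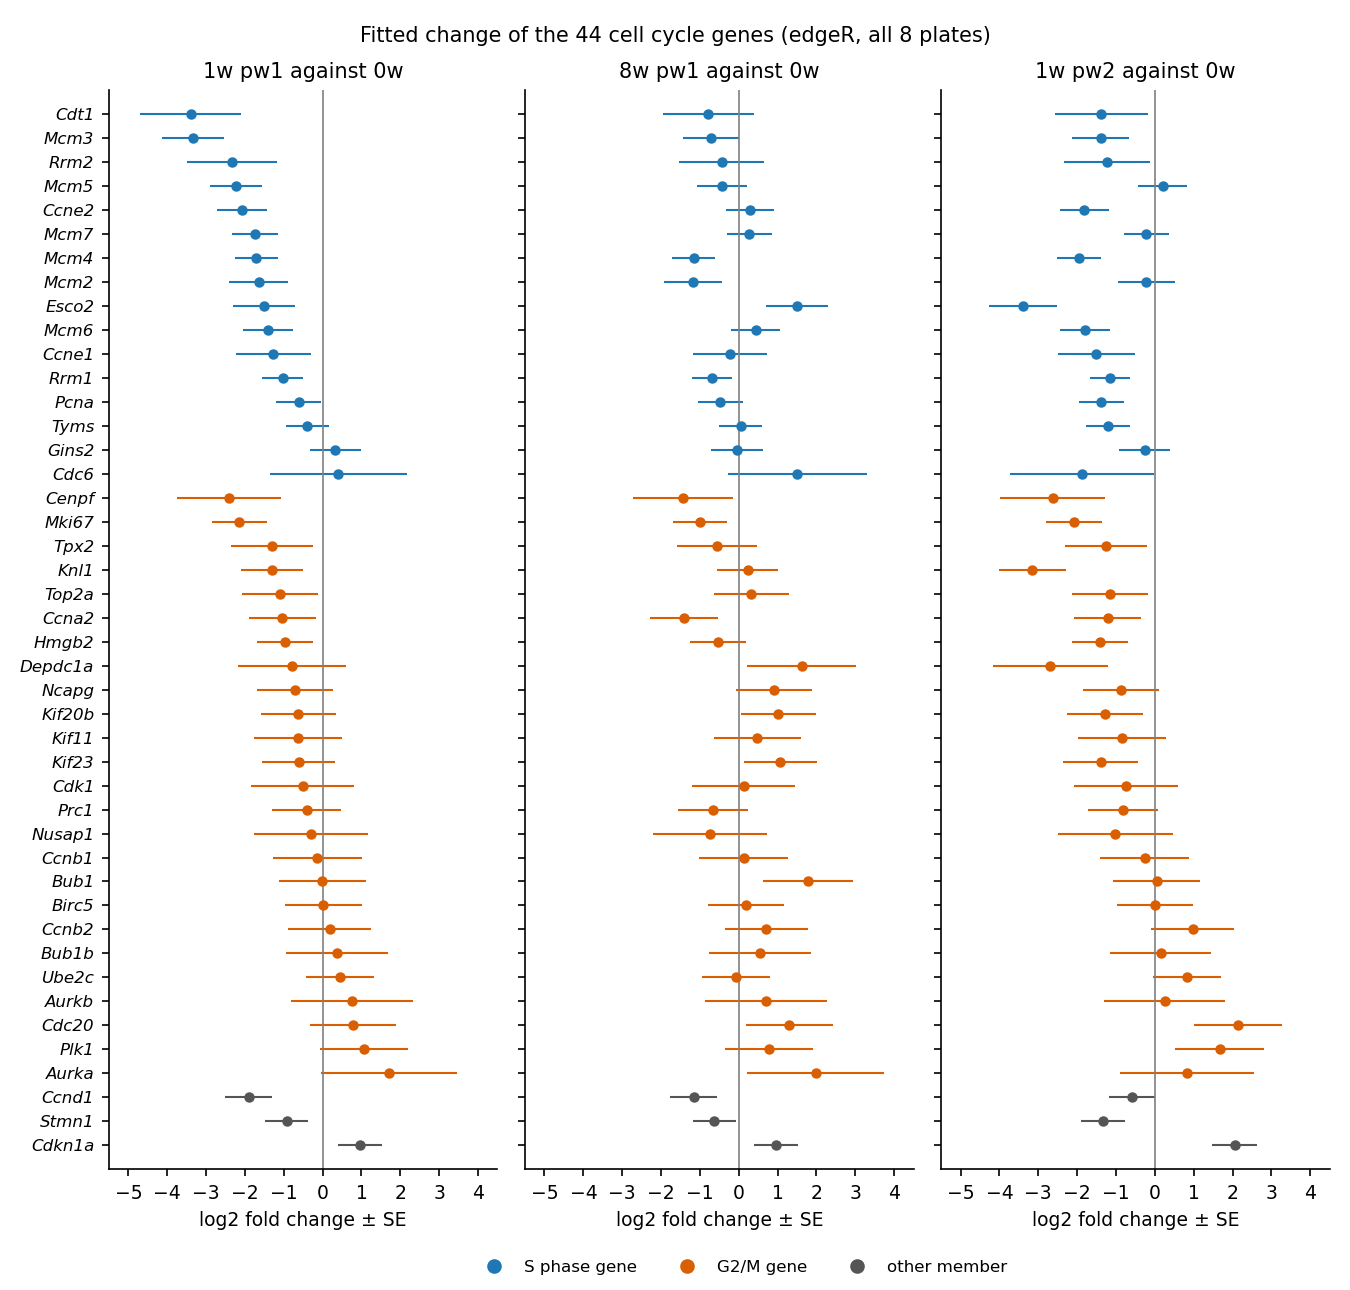
Fitted log2 fold change with its standard error for each of the 44 cell cycle genes from 0w to each later time point, by edgeR on all 8 plates; S phase genes are blue, G2/M genes orange and the 3 others grey, ordered by the first panel. S phase genes lie mostly below 0 at both wound weeks (14 and 15 of 16) and around 0 at 8w pw1, and none of the changes passed the test.

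The second healing, from 8w pw1 to 1w pw2, gave medians of -0.79 for the S phase and -0.88 for the G2/M genes, beside 0.01 for all genes. No member was the 1 gene called by edgeR (0.00722%), and 8 members were lower at an unadjusted p below 0.05, 4 of S phase and 4 of G2/M, beside 4.3% of all genes. DESeq2 called Esco2, Mcm6, Knl1 and Depdc1a lower, beside 2.11% of the genes it tested. Mcm6 had a log2 fold change of -2.24 (SE 0.66, edgeR adjusted p = 0.449), with the single cell of 8w pw1 named above behind its high plate, and -1.05 without that plate. Without replicate 2 of 8w pw1 the G2/M median was 1.42, on the other side of 0, and the S phase median -0.41. With the stricter filter on cells both medians lay above 0, at 1.67 for the G2/M and 0.64 for the S phase genes, and Knl1 had a log2 fold change of 0.26.

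The wound weeks were also compared with each other. Between 1w pw2 and 1w pw1 edgeR called 0 genes (0.0%), and DESeq2 called 0 members and 0.314% of the genes it tested. At an unadjusted p below 0.05 Mcm3, Mcm5 and Mcm7 were higher at 1w pw2 (3.38% of all genes), and Esco2 and Knl1 were lower (2.63%). Their log2 fold changes were 1.94 (SE 0.76), 2.43 (SE 0.67), 1.52 (SE 0.59), -1.89 (SE 0.83) and -1.85 (SE 0.82), and that of Mcm7 was 0.94 without replicate 1 of 1w pw2. The difference between the healings, taken as the second change (8w pw1 to 1w pw2) less the first (0w to 1w pw1), had 0 genes called (0.0%) and 5 members at an unadjusted p below 0.05, beside 5.34% of all genes, while DESeq2 called 0 members and 0.556% of the genes it tested. The difference on the log2 scale was above 0 for Mcm5 (2.87, SE 0.92), Mcm3 (2.65, SE 1.04), Mcm2 (2.61, SE 1.06) and Ccnd1 (2.47, SE 0.85) and below 0 for Esco2 (-3.40, SE 1.15), with edgeR adjusted p between 0.891 and 0.922. When a plate was left out, the value of Ccnd1 ranged from 1.95 to 3.47 and that of Esco2 from -4.31 to -1.98. The value of Esco2 with the stricter filter was 0.29.

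To see how many cells carried these genes, each cell with at least 20000 counts was thinned to 20000, which kept 645 cells and left out 51. A cell was taken to have the S phase programme with at least 5 of the 16 S phase genes detected, and the G2/M programme with at least 5 of the 25 G2/M genes. These are ranges of a count and not cell types: 36 cells had 4 and 17 had 5 S phase genes, and 7 and 6 cells had 4 and 5 G2/M genes. In all 79 cells had the S phase programme, 55 the G2/M programme and 31 both, so that 103 cells had either. Of the cells with the G2/M programme 56.4% also had the S phase programme.

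The S phase programme was found in 16 of 86 and 16 of 81 cells on the 0w plates (18.6% and 19.8%), and in 5 of 80 and 6 of 78 cells at 1w pw1 (6.25% and 7.69%). It was found in 12 of 81 and 13 of 73 cells at 8w pw1 (14.8% and 17.8%), and in 6 of 83 and 5 of 83 cells at 1w pw2 (7.23% and 6.02%). All plates of the wound weeks lay below all others, but the 95% Clopper-Pearson intervals of the nearest plates overlapped, with 2.88% to 15.99% on replicate 2 of 1w pw1 and 7.90% to 24.4% on replicate 1 of 8w pw1, and these intervals cover counting error only. Without thinning, the shares were 36.4% and 39.6% at 0w, 20.2% and 31.6% at 1w pw1, 29.4% and 29.9% at 8w pw1 and 24.4% and 18.7% at 1w pw2, so that replicate 2 of 1w pw1 lay above both 8w pw1 plates and the separation was lost. It was also lost when 3 S phase genes were enough, with 32.5% on replicate 1 of 1w pw1 and 31.3% on replicate 1 of 1w pw2 against 29.6% on replicate 1 of 8w pw1. The shares were not tested, and the smallest two-sided p of an exact permutation test of 2 plates against 2 is 0.33.

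The G2/M programme was found in 8.14% and 11.1% of cells at 0w, 5% and 10.3% at 1w pw1, 4.94% and 13.7% at 8w pw1 and 8.43% and 7.23% at 1w pw2, and all time points overlapped. For both plate numbers the share was lower at 1w pw1 than at 0w, though the labels do not state that plates match by number. Cells with the S phase but not the G2/M programme numbered 12 and 9 on the 0w plates and 9 and 9 at 8w pw1, against 3 and 1 at 1w pw1 and 3 and 2 at 1w pw2. As shares of the cells kept these were 14.0% and 11.1%, 11.1% and 12.3%, 3.75% and 1.28%, and 3.61% and 2.41%. The plates of the wound weeks lay below the others, but not when 3 genes of a phase were enough, with 25% on replicate 1 of 1w pw1 against 23.5% on replicate 2 of 0w, nor at 5 or more counts per gene, where 5 plates had none. At least 15 G2/M genes were detected in 25 cells, found on every plate except replicate 1 of 1w pw1, and the fullest cells had 24 of 25.

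**Figure D3:**
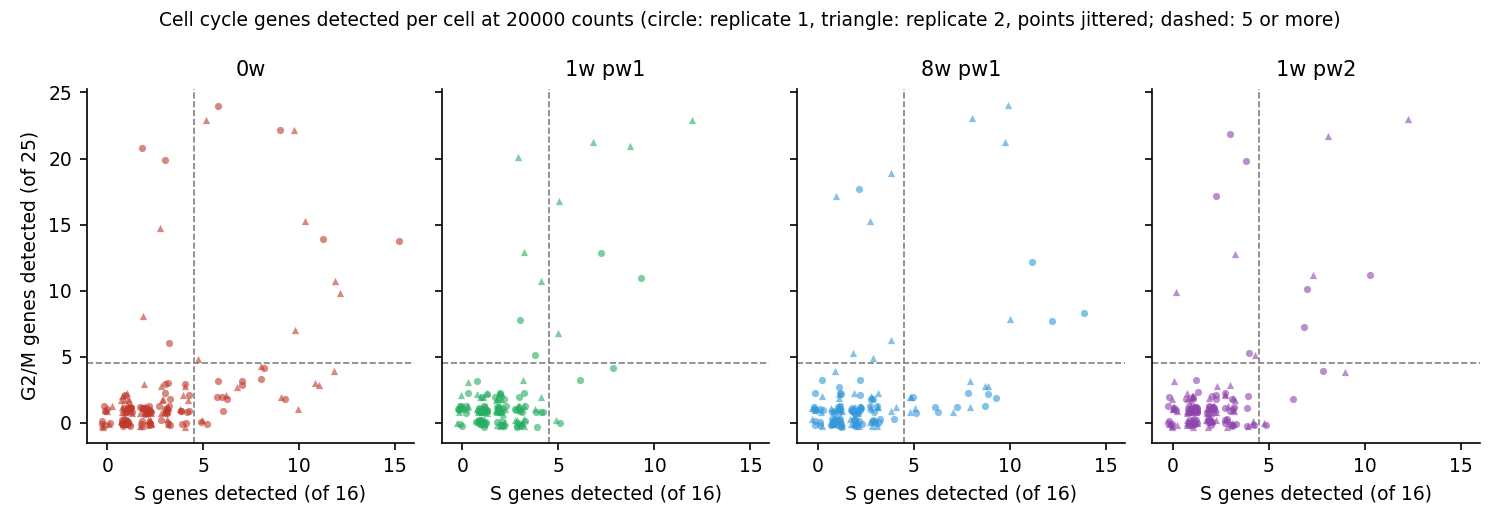
Number of S phase genes (x axis, of 16) and of G2/M genes (y axis, of 25) detected in each cell thinned to 20000 counts, by time point; circles are cells of replicate 1, triangles of replicate 2, points are jittered, and dashed lines mark 5 genes. The lower right field, with S phase genes alone, holds 21 cells at 0w and 18 at 8w pw1 but 4 at 1w pw1 and 5 at 1w pw2.

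The share of cells with a member was also taken by class, which is a description only, since each gene counts towards its own class. Mki67 was detected in 95.8% of cells with the G2/M programme alone, 93.5% of those with both, 25.0% of those with the S phase programme alone and 5.72% of those with neither. Esco2 was detected in 67.7% of cells with both programmes and 8.33% of those with the S phase programme alone. Cenpf, a kinetochore protein, was detected in 75.0% of cells with the G2/M programme alone and 4.17% with the S phase programme alone. Rrm1, on the S phase list, was detected in 64.6% of cells with the S phase programme alone and in 62.5% of those with the G2/M programme alone. Among cells with neither programme Pcna was detected in 63.7% and the chromatin protein Hmgb2 in 47.4%.

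The basal keratins Krt14 and Krt5 were detected more often in cells with either programme than in the others, a difference that was not tested. Krt14 was detected in 102 of 103 of them (99.0%) and in 82.3% of the 542 cells with neither programme. Krt5 was detected in 91.3% and 45.4%, but at 0w alone in 86.5% and 63.8%, and the suprabasal Krt10 in 38.8% and 71.6%. Krt15 was detected in 57.3% and 37.8% over all plates, but at 1w pw1 alone in 12.5% and 14.8%. The summed basal markers had a median in cells with a programme of 1500 CPM for 0w, 7100 CPM for 1w pw1, 6575 CPM for 8w pw1 and 8900 CPM for 1w pw2, and in the others 1700, 1250, 3300 and 2025 CPM, so that at 0w the cells with a programme had the lower median. This held on replicate 1 of 0w (1950 against 2600 CPM) but not on replicate 2 (1475 against 1400 CPM). Krt10 was detected in 11 of 37 cells with a programme at 0w, 10 of 16 at 1w pw1, 10 of 32 at 8w pw1 and 9 of 18 at 1w pw2. The summed suprabasal markers had a median of 750 CPM in cells with a programme and 5350 CPM in the others. By time point the median in cells with a programme was 150 CPM for 0w, 6850 CPM for 1w pw1, 750 CPM for 8w pw1 and 925 CPM for 1w pw2, and in the others 650, 17700, 1825 and 10375 CPM. Cells with a programme thus had the lower median at each time point, but those of 1w pw1 lay above the other cells of 0w and 8w pw1. At 0w the gap came from replicate 1 (150 against 1150 CPM), while on replicate 2 both medians were 300 CPM. The wound-activated markers, such as Krt6a, had a median in cells with a programme of 0 CPM for 0w, 9525 CPM for 1w pw1, 275 CPM for 8w pw1 and 1950 CPM for 1w pw2. In the others it was 50, 1250, 250 and 1900 CPM. The classes were thus close at 8w pw1 and 1w pw2 in the summed markers. Krt6a alone was detected more often in cells with a programme, which was not tested. Its shares were 77.8% against 47.3% for 1w pw2 and 46.9% against 34.4% for 8w pw1. The Krt6a medians of the 1w pw2 plates were 1000 and 275 CPM in cells with a programme and 0 CPM in the others. For 8w pw1 they were 0 CPM in both classes. Over all time points the markers of the upper follicle had a median of 50 CPM in cells with a programme and 450 CPM in the others. The median depth before thinning was 160092 counts in the former and 144158 in the latter.

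The share of Krt5 cells itself differed between time points. A Krt5 count was present in 73.3% and 64.2% of the thinned cells at 0w, 32.5% and 35.9% at 1w pw1, 70.4% and 65.8% at 8w pw1 and 43.4% and 36.1% at 1w pw2. The 6 suprabasal markers summed to 2842 and 3740 CPM at 0w, 40940 and 39373 at 1w pw1, 6352 and 5348 at 8w pw1 and 15564 and 26695 at 1w pw2, so all plates of the wound weeks lay above the others. The 6 markers of the basal layer, Krt5 and Krt14 among them, summed to 2233 and 1716 CPM at 0w, 5522 and 3986 at 1w pw1, 4018 and 4873 at 8w pw1 and 4256 and 3935 at 1w pw2. All later plates thus lay above both 0w plates in that sum, unlike in the share of cells with a Krt5 count. Among cells with a Krt5 count, a subset chosen after these values were seen, the S phase programme was found in 22.2% and 26.9% at 0w, 19.2% and 17.9% at 1w pw1, 21.1% and 25.0% at 8w pw1 and 16.7% and 13.3% at 1w pw2. The wound weeks still lay below the others, by a smaller margin. These shares rest on 63 and 52 cells at 0w, 26 and 28 at 1w pw1, 57 and 48 at 8w pw1 and 36 and 30 at 1w pw2. At such numbers 1 cell more on a plate of 1w pw1 could undo the order. The ratio of the mean share at 1w pw1 to that at 0w was 0.363 in all cells and 0.755 in Krt5 cells, and the ratio at 1w pw2 to 0w was 0.346 and 0.610. The G2/M programme in Krt5 cells was found in 7.94% and 17.3% at 0w, 11.5% and 28.6% at 1w pw1, 7.02% and 20.8% at 8w pw1 and 19.4% and 16.7% at 1w pw2. The ranges of all time points overlapped there. For both plate numbers the share was higher at 1w pw1 than at 0w, unlike in all thinned cells. The labels do not state that plates match by number, and few cells lie behind these shares.

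**Figure D4:**
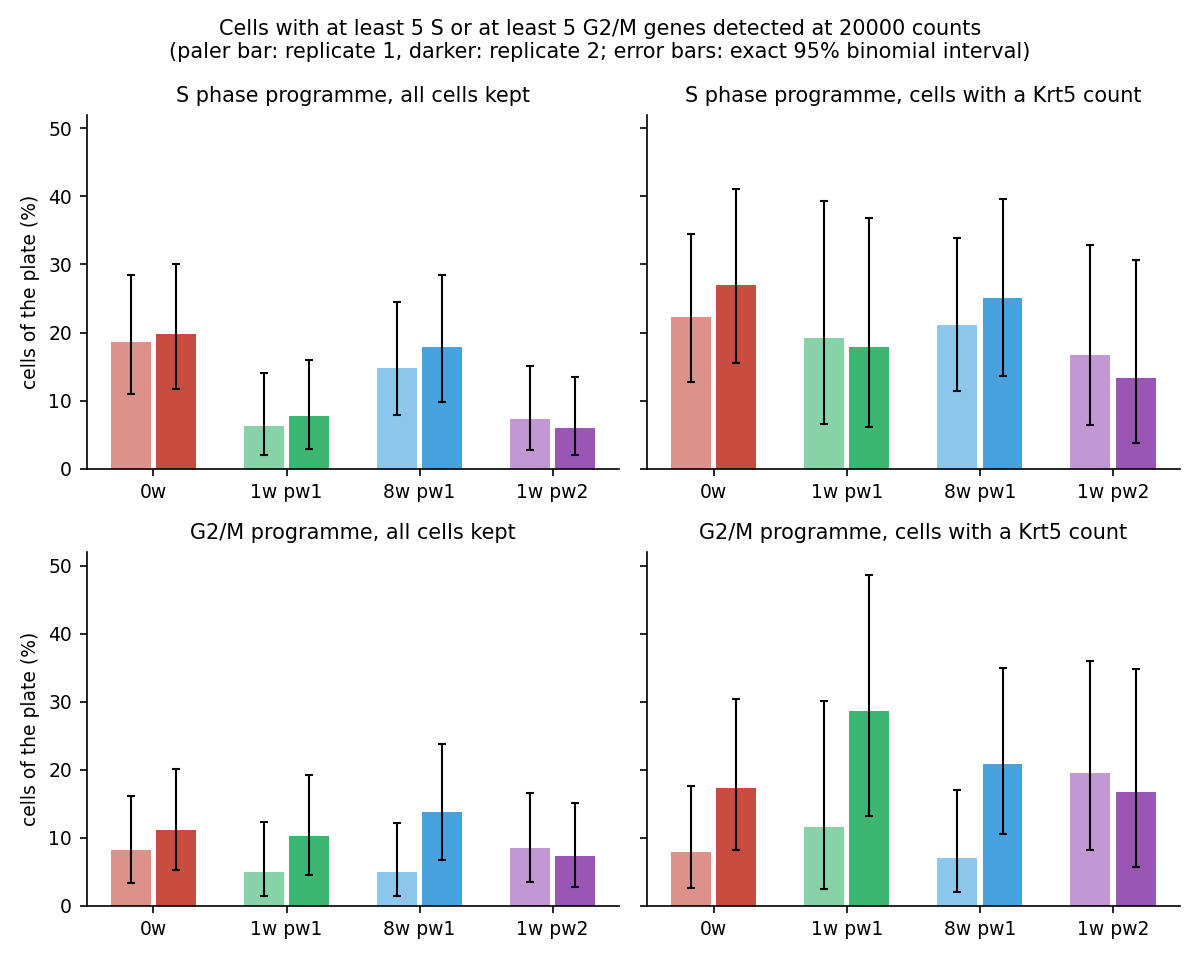
Share of cells on each plate with the S phase programme (top) and the G2/M programme (bottom), in all thinned cells (left) and in those with a Krt5 count (right); paler bars are replicate 1, darker bars replicate 2, and error bars are exact 95% binomial intervals that cover counting error only. The wound weeks lie at 6.02% to 7.69% for the S phase programme in all cells and at 13.3% to 19.2% in Krt5 cells.

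The detection of Cdkn1a was compared between cells with and without a programme. It had a count in 33.7% and 25.9% of thinned cells at 0w, 56.2% and 56.4% at 1w pw1, 45.7% and 34.2% at 8w pw1 and 84.3% and 65.1% at 1w pw2. Among cells with neither programme the shares at these time points were 36.2%, 59.2%, 47.5% and 76.4%, over 122 to 148 cells. Among cells with a programme they were 3 of 37 cells (8.11%), 5 of 16 (31.2%), 4 of 32 (12.5%) and 11 of 18 (61.1%). At 1w pw2 both plates contributed, with 7 of 10 and 4 of 8 cells.

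Ccnd2, cyclin D2, which is not on the list of 44 but belongs to a second list of G1 regulators, was the 1 gene of the wider pathway lists that passed the test. It lay at 388 and 288 CPM at 0w, 51.0 and 47.7 at 1w pw1, 255 and 173 at 8w pw1 and 116 and 103 at 1w pw2. It fell at 1w pw1 against 0w with a log2 fold change of -2.78 (SE 0.46, edgeR adjusted p = 0.0357), and at 1w pw2 against 0w the log2 fold change was -1.63 (SE 0.44, adjusted p = 0.187). Without any 1 of the 4 plates compared the adjusted p at 1w pw1 was 0.103 to 0.310, and with the stricter filter on cells 0.437, at a log2 fold change of -1.73. In cells with a programme it was detected in 31 of 37 cells at 0w, 3 of 16 at 1w pw1, 27 of 32 at 8w pw1 and 11 of 18 at 1w pw2. The 1w pw1 plates differed, as Ccnd2 was detected in 3 of 7 such cells on replicate 1 and 0 of 9 on replicate 2. In cells with neither it was detected in 66.2%, 34.5%, 55.7% and 41.2%.

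**Figure D5:**
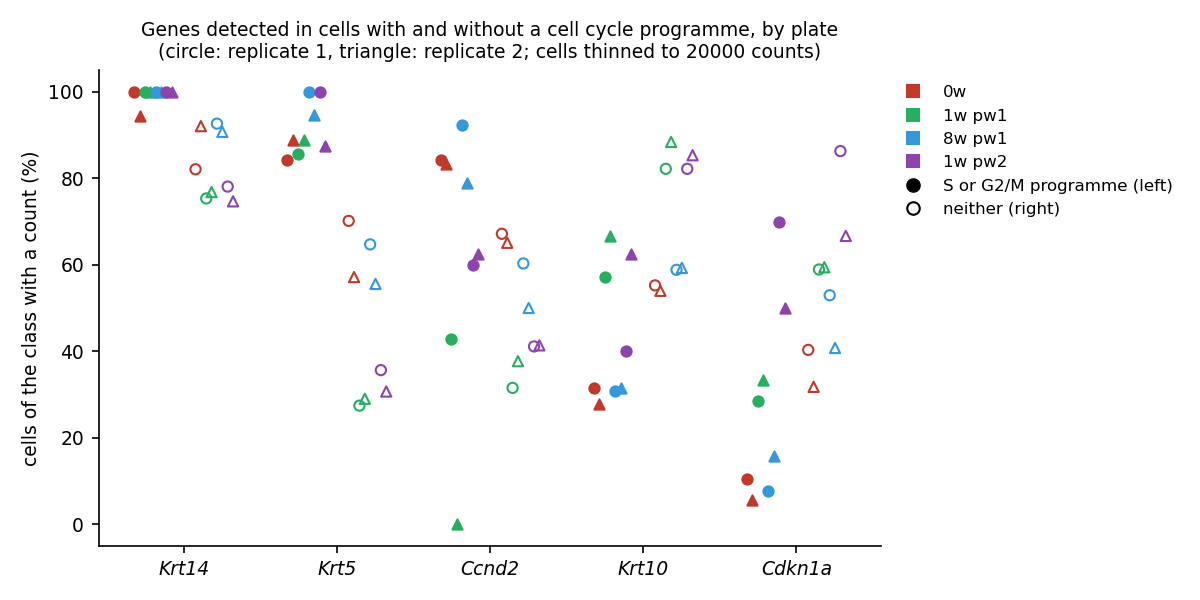
Share of cells with a count of Krt14, Krt5, Ccnd2, Krt10 and Cdkn1a on each plate, in cells with the S phase or G2/M programme (filled, left) and with neither (open, right), coloured by time point, with circles for replicate 1 and triangles for replicate 2. Cells with a programme number 7 to 19 on a plate; their Krt14 and Krt5 shares are high at all time points, and their Cdkn1a shares are highest at 1w pw2 (70% and 50%).

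The other genes of the pathway, which are not among the 44, were counted in 3 further lists. Of 38 other S phase genes, 36 had a log2 fold change below 0 from 0w to 1w pw1 and 35 from 0w to 1w pw2, with medians of -1.35 and -1.21, beside 51.8% and 48% of all genes below 0. None passed the test in edgeR, and 13 and 11 were lower at an unadjusted p below 0.05, beside 6.01% and 5.73% of all genes. From 0w to 8w pw1, 34 of the 38 were also below 0, beside 46.5% of all genes. At 8w pw1, 2 were lower at an unadjusted p below 0.05, beside 2.66%, and 13 had both plates below both 0w plates, beside 15.6%. Hells, a chromatin remodeller, lay at 56.5 and 152 CPM at 0w, 17.05 and 5.21 at 1w pw1, 47.0 and 58.1 at 8w pw1 and 24.6 and 20.8 at 1w pw2. Its log2 fold change at 1w pw1 was -3.23 (SE 0.72, edgeR adjusted p = 0.0933). Cdc7, the kinase that fires origins, had log2 fold changes of -2.68 (SE 0.64) and -2.39 (SE 0.63) at 1w pw1 and 1w pw2, and Atad2, a bromodomain ATPase, had -2.17 (SE 0.55) at 1w pw2.

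Of 42 other G2/M genes, 34 and 31 had a log2 fold change below 0 from 0w to 1w pw1 and to 1w pw2. Over all genes 51.8% and 48% were below 0. The medians of the 42 genes were -0.65 and -0.56. None passed the test in edgeR, with 1 lower at an unadjusted p below 0.05 at 1w pw1 (6.01% of all genes) and 1 higher at 1w pw2 (6.82%). Smc2, a core subunit of condensin, lay at 100.6 and 155 CPM at 0w, 5.23 and 45.1 at 1w pw1, 131 and 49.1 at 8w pw1 and 46.5 and 11.003 at 1w pw2 (log2 fold changes -2.34, SE 0.99, and -2.16, SE 0.99). Jpt1 had a log2 fold change of 1.47 (SE 0.72) at 1w pw1, and Rangap1, the activator of the Ran GTPase, 1.40 (SE 0.52) at 1w pw2. Of 20 G1 regulators tested, 13 and 12 were below 0, beside 51.8% and 48% of all genes, with medians of -0.18 and -0.22. Cdkn2b, an inhibitor of Cdk4 and Cdk6, lay at 14.5 and 6.36 CPM at 0w, 33.2 and 24.2 at 1w pw1, 12.2 and 4.37 at 8w pw1 and 36.5 and 33.6 at 1w pw2, with log2 fold changes of 1.46 (SE 0.67) and 1.75 (SE 0.68) at the wound weeks and no call. The part of the suprabasal, sebocyte and bulge markers, of Pecam1, of mitochondrial counts and of single cells in the values above was not tested beyond the alternatives given.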

How the data were processed

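Single tdTomato+ cells were sequenced with Smart-seq2, which adds no molecular identifiers. The values deposited by the authors were expected counts, the estimated counts that Salmon 0.13.1 gives for each gene in a cell on mm10/GRCm38 per the labels, and were not normalised; 96.6% of values were whole, to a tolerance of 1e-09. The cells had been filtered before deposit (at least 1000 genes, at most 50% mitochondrial counts). Counts were summed per plate and rounded. edgeR 4.0.16 in R 4.3.3 was fitted to all 8 plates with the time point as the only term, the default filter on low counts, TMM scaling and the quasi-likelihood test, for 7 contrasts. The biological coefficient of variation was 0.61, with 4 residual degrees of freedom. Alternatives used DESeq2 1.42.0 and limma 3.58.1, and the scripts were tested on simulated data. Replicate plates differed (Pearson r across genes 0.898 to 0.950). Same-numbered plates deviated together from their group means (correlations 0.168 to 0.257 over 6 pairs). Replicate 2 had more counts than replicate 1 at every time point, and the part of depth in these correlations was not tested. The labels do not say that the number pairs plates, so it entered as a block in an alternative fit only. Named genes are Mki67, Top2a, Pcna, Mcm2, Ccnd1, Cdkn1a, the 3 members with the lowest p per contrast and, of each wider list, called genes and the 2 with the lowest p at each wound week against 0w; other members are named with their groups. The 44 members and the other lists were chosen with earlier results of these data known. The columns without a sample numbered 0.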

Additional observations from a re-analysis of the deposited data

How the results depend on the processing

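The calls, list medians, fold changes of named genes and ratios of shares were recomputed under the alternatives that apply to each, while sums by role, marker sums and shares by class were not. The cause of a difference was not tested, and limits are 2 plates a time point, few cells behind each G2/M sum and low counts of several members. EdgeR called 0 members under each of its alternatives. With the replicate number as a block it also called 0 in all 7 contrasts. The S phase median at 1w pw1 against 0w was then -1.42. DESeq2 called 4 members in each of 4 contrasts (0w with either wound week and 8w pw1 with either wound week). With every cell scaled equally (limma on mean CPM), 1 member, Esco2, was called at 1w pw2 against 0w (log2 fold change -3.60, limma adjusted p = 0.0355). The share of all genes called in that setting is not given here, so this call has no background beside it. The S phase medians were -1.42 from 0w to 1w pw1, 0.0063 from 0w to 8w pw1, -1.05 from 0w to 1w pw2 and 0.13 between the wound weeks. Mcm2 had a log2 fold change of 0.0401 at 1w pw2 against 0w.

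With the stricter filter on cells the S phase median was -0.30 from 0w to 1w pw1, 0.18 from 0w to 1w pw2, -0.34 from 1w pw1 to 8w pw1, 0.64 from 8w pw1 to 1w pw2, 0.0501 between the wound weeks and 1.603 for the difference between the healings. The G2/M median was -2.34 at 8w pw1 against 0w and 1.67 from 8w pw1 to 1w pw2. Log2 fold changes on the other side of 0 were those of Mcm2 (0.15) and Pcna (1.05) at 1w pw1 against 0w, Esco2 (-1.61) and Mcm4 (0.38) at 8w pw1 against 0w, Mcm2 (1.47) and Pcna (0.18) at 1w pw2 against 0w, Esco2 (-1.32) from 1w pw1 to 8w pw1, Knl1 (0.26) from 8w pw1 to 1w pw2 and Esco2 (0.29) between the healings. Without the deepest cell of each plate the S phase median was -1.70 at 1w pw1 against 0w and 1.05 from 1w pw1 to 8w pw1.

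For the share of cells with the S phase programme, the ratios of 1w pw1 and 1w pw2 to 0w and of 1w pw2 to 8w pw1 were 0.680, 0.662 and 0.818 at 3 or more genes, 0.246, 0.293 and 0.307 at 8 or more, 0, 0.200 and 0.314 at 5 or more counts per gene, 0.683, 0.568 and 0.727 without thinning and 0.755, 0.610 and 0.651 in Krt5 cells, an alternative chosen after seeing the data. At 50000 counts the last 2 ratios were 0.409 and 0.547, and at 5 or more counts per gene that of 8w pw1 to 0w was 0.637. The G2/M ratio of 1w pw2 to 0w was 0.596 at 3 or more genes, 0.547 at 5 or more counts per gene and 1.43 in Krt5 cells, where that of 1w pw1 to 0w was 1.59.

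Leaving out 1 plate at a time, the S phase median ranged from -1.83 to -1.07 (1w pw1 against 0w), -0.80 to 0.12 (8w pw1 against 0w), -1.78 to -0.69 (1w pw2 against 0w), 0.74 to 1.44 (8w pw1 against 1w pw1), -0.92 to -0.41 (1w pw2 against 8w pw1), -0.46 to 0.16 (1w pw2 against 1w pw1) and 0.0536 to 0.94 (between the healings). The G2/M median ranged, in that order, from -2.56 to 0.35, -2.22 to 1.12, -1.01 to -0.31, -1.49 to 2.77, -1.63 to 1.42, -0.995 to 1.78 and -1.08 to 2.06. The G2/M ratio of 1w pw2 to 8w pw1 ranged from 0.572 to 1.59, and Mcm2 at 1w pw2 against 0w from -0.81 to 0.43. The call of Ccnd2 at 1w pw1 held under the other alternatives, with adjusted p of 0.0394 or less, the highest without a plate of 1w pw2.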
